A study of Homo sapiens with 6 samples.

Results

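Chromatin accessibility was examined at 8 genes of the RAS-MAPK signalling pathway, BRAF, NF1, NF2, DUSP6, SPRY2, SPRY4, ETV4 and ETV5, out of 20175 annotated protein-coding genes. They were taken by gene name from a given list. All 8 belong to RAS-MAPK signalling or, for NF2, to a tumor suppressor that restrains it, and no gene of the p53 pathway is among them. The data are ATAC-seq, which marks open DNA by letting a transposase insert sequencing adapters into it. The cells were MDA-MB-231, a long-established line from a human breast cancer of the triple-negative type, and 3 libraries each were made from the parental line and from SAP30-KO1. SAP30-KO1 is a line made from MDA-MB-231 with CRISPR/Cas9 against SAP30, a subunit of the SIN3 corepressor complex, and it is a mixture of several selected knockout cells. Both groups were grown without any further treatment named in the labels. Nothing says whether the 3 libraries of a group came from separate cultures, so the p-values measure only the spread between these libraries.

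RAS proteins pass signals from growth factor receptors to the RAF, MEK and ERK kinases. NF1 switches RAS off, and BRAF is the RAF kinase that activates MEK most strongly. Active ERK switches on its own brakes, among them the phosphatase gene DUSP6 and the Sprouty genes SPRY2 and SPRY4, and it also switches on the ETS factor genes ETV4 and ETV5. MDA-MB-231 is known as a line with constitutive RAS-MAPK signalling, and the brake genes and the ETS genes are widely used readouts of that pathway.

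Each library has a list of summits, the single base where a peak is highest, scored by the peak's q value as its −log10. Lists held 29762 to 40650 summits. The scores of separate lists are not on a common scale, so each summit was given its percentile rank from 0 to 100 within its own list, and a promoter took the highest rank among summits within 1 kb of any annotated start site of the gene, or 0 with no summit. A signal from fewer cells and a signal from fewer open copies per cell cannot be told apart in these lists. Promoters of 5 markers of mesenchymal-type breast cancer cells (VIM, CD44, AXL, CAV1 and ZEB1) each had a summit in at least 1 library, and those of VIM, CD44 and CAV1 in all 6. Of 5 luminal markers (ESR1, GATA3, FOXA1, GRHL2 and ESRP1), 0 to 2 promoters had a summit in a parental library and 1 to 4 in a SAP30-KO1 library, and the part of such cells in the results was not tested. The leukocyte markers PTPRC, CD3E and CD79A had none in any library.

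The reference sequence under 7 sites that carry the results is given first. Each run is 201 bases of GRCh37 (hg19) around the middle of the libraries' summits, read 5′ to 3′ on the strand of the gene. The first 4 sites had the highest mean ranks of all sites found at these genes. The BRAF promoter and the ETV4 start near the gene end are the sites whose groups did not overlap, and the outermost ETV4 start is shown beside the latter. Capitals mark matches on either strand to letters that transcription factor families are known to bind. These were TGANTCA for AP-1, CCGGAA for ETS factors, GGAATG for TEAD, GGGCGG for SP/KLF and CCAAT for NF-Y, and neighbouring matches to ETS and TEAD letters can share bases. CCAAT was added after the sequences had been seen. Shares with 3 or more matches were not planned and were computed for CCAAT and GGAATG only. A match is a description of the letters and not a binding site.
ETV5 promoter, chr3:185826911-185827111, minus strand: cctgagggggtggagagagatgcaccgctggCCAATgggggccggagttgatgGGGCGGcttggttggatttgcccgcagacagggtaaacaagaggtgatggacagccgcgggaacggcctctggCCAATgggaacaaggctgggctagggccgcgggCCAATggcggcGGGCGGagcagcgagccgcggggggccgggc
SPRY2 promoter, chr13:80915305-80915505, minus strand: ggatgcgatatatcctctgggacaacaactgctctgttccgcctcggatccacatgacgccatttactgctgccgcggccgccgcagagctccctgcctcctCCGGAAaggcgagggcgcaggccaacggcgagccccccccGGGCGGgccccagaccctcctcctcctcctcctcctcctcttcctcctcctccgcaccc
DUSP6 promoter, chr12:89746321-89746521, minus strand: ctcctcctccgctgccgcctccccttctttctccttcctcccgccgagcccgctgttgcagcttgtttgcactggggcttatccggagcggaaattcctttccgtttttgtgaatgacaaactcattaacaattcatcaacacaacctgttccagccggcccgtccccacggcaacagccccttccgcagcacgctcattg
SPRY4 upstream site, chr5:141722050-141722250, minus strand: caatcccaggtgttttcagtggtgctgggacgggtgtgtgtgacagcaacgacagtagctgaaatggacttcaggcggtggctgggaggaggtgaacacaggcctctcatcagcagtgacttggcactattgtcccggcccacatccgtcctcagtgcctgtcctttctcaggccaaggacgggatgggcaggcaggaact
BRAF promoter, chr7:140624126-140624326, minus strand: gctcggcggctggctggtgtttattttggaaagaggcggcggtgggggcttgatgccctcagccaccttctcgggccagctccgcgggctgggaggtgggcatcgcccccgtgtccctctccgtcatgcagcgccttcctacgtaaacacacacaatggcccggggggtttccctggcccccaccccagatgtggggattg
ETV4 promoter of the internal start near the gene end, chr17:41608085-41608285, minus strand: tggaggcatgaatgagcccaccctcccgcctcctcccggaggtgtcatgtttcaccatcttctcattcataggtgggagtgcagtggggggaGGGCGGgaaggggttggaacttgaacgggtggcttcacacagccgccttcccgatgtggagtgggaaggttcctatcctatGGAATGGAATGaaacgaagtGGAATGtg
ETV4 promoter of the outermost start, chr17:41657014-41657214, minus strand: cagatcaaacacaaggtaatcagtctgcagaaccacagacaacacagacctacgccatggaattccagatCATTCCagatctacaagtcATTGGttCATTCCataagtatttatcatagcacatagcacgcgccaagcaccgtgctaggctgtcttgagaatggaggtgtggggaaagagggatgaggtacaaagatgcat

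In windows extended by 50 bases to each side of the runs shown, the ETV5 promoter held 5 CCAAT matches and 2 GGGCGG matches. Of 16632 sites near any annotated start site, 31.4% held at least 1 CCAAT and 3.01% held 3 or more, while 57.2% held a GGGCGG. The SPRY2 promoter held 2 GGGCGG matches and 1 CCGGAA match, which 21% of those sites held. The DUSP6 promoter had a single CCAAT and none of the other letters, and 54.8% of its bases were G or C against a median of 64.5% for sites near start sites. The BRAF promoter, with 67.1% G and C, had 1 match each to the ETS, SP/KLF and NF-Y letters in that wider window and none in the run shown.

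Both ETV4 promoter sites shown had GGAATG matches. The ETV4 promoter site at an internal start 33 kb into the gene, not shown, had none. The site near the gene end held 3, and 0.174% of the sites near start sites held 3 or more. The site at the outermost start held 2, where 13.9% of the sites near start sites held at least 1. It also had few CpG dinucleotides, 5 against a median of 23. The SPRY4 upstream site lay 16 kb before the gene and held 1 AP-1 match, outside the run that is shown. Among 39781 sites away from start sites 41.6% held such a match. With 56.8% G and C it was above 87.7% of them.

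**Figure D1:**
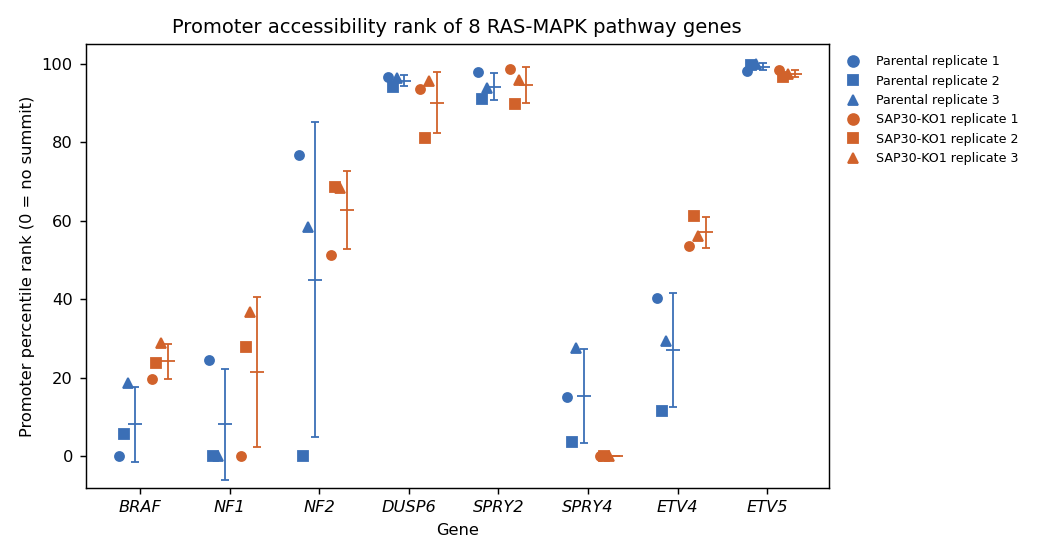
Promoter percentile rank (vertical axis, 0 where a library had no promoter summit) of the 8 genes (horizontal axis) in each of 6 libraries. Points are libraries, and the bars beside them give the mean and SD over 3 libraries of a group. ETV5, SPRY2 and DUSP6 lie above 80 in all 6 libraries, and BRAF, SPRY4 and ETV4 are the 3 genes whose groups do not overlap.

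The 8 promoters covered almost the whole range of accessibility. ETV5, an ETS factor, had the highest promoter rank, followed by the feedback inhibitors SPRY2 and DUSP6. Ranked over whole lists, NF2 and ETV4 were in the middle, and BRAF, NF1 and SPRY4 were at the low end. Averaged over the 6 libraries, the ranks were 98.3 for ETV5, 94.4 for SPRY2, 92.9 for DUSP6, 53.9 for NF2, 42.0 for ETV4, 16.1 for BRAF, 14.8 for NF1 and 7.72 for SPRY4. Against all 12572 protein-coding genes with a promoter summit in at least 1 library, whose median was 46.3, ETV5 was above 98.5% of the genes and SPRY4 above 13.4%. In each library ETV5, SPRY2 and DUSP6 ranked above the other 5 genes. ETV5 was above SPRY2 in 5 of the 6 libraries, and ETV4 above BRAF in all 6. The values of SPRY2 and DUSP6 overlapped, and so did those of NF2 and ETV4 and those of BRAF, NF1 and SPRY4. A promoter summit was present in all 6 libraries for 4 of the 8 genes (ETV5, SPRY2, DUSP6 and ETV4), where 55.4% of the 12572 genes had one.

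To describe accessibility at these genes in SAP30-KO1, the 3 parental libraries were compared with the 3 SAP30-KO1 libraries. SAP30-KO1 was the only knockout line among them. Loss of SAP30 therefore cannot be told apart from other differences between this line and parental cells. Differences of the group means were tested by exact permutation of the libraries, two-sided, with 20 assignments, so that p cannot go below 0.1. Adjusted over all 12572 genes by Benjamini-Hochberg, the lowest p of this permutation test was 0.945. No gene could pass a threshold of 0.05. Genes are therefore described by whether the groups overlap. BRAF and ETV4 ranked higher in every SAP30-KO1 library than in every parental one, which is 2 of the 8 genes where 6.01% of all genes tested did. SPRY4 alone among the 8 had the opposite order, which 4.57% of all genes tested had. The other 5 genes overlapped. The median difference of SAP30-KO1 minus parental was 6.93 percentile points over the 8 genes and 0.673 over all genes tested. The 8 genes were chosen with earlier results of these data known, so these shares and medians are a description only. The mean difference over the 8 genes, 6.85, was 1.37 without parental replicate 2, in which the mean rank of the 8 promoters was 38.1 against 51.9 to 59.8 in the other libraries. With the same number of top-ranked summits kept in each library, ETV4 was the 1 gene of the 8 whose groups still did not overlap.

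**Figure D2:**
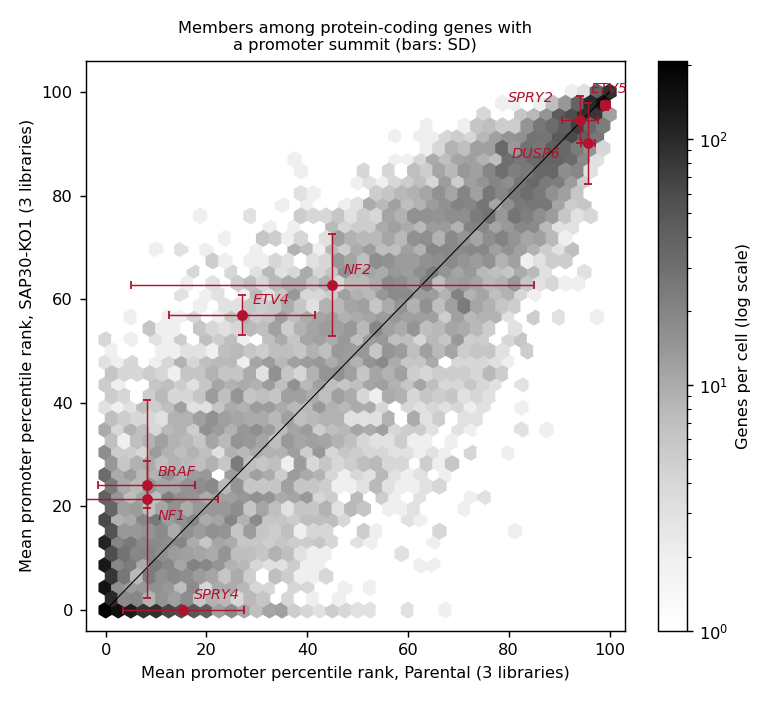
Mean promoter percentile rank in parental cells (horizontal axis) and in SAP30-KO1 cells (vertical axis). The grey cells count the 12572 protein-coding genes with a promoter summit on a log scale, the line marks equal ranks, and the red points with SD bars (n = 3) are the 8 genes. ETV4, with means of 27.1 and 57.0, lies farthest from the line among the 8, and SPRY2, with 94.1 and 94.6, lies nearest to it.

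The kinase and the suppressor genes come first. BRAF (chr7:140419127-140624729, minus strand), the RAF kinase gene, had promoter ranks of 0, 5.63 and 18.8 in parental replicates 1, 2 and 3. The SAP30-KO1 libraries gave 19.8, 23.9 and 28.8. All SAP30-KO1 values were thus above the parental ones, the nearest pair being 18.8 and 19.8. The difference was 16.0 (exact permutation test, two-sided, p = 0.1, adjusted p = 0.945), and it was 8.69 with overlapping groups when the same number of top-ranked summits was kept in each library. It was 6.50 with peaks limited to q values up to 0.0001, where the groups still did not overlap. No parental promoter peak passed that limit, so all parental values there were 0, and the SAP30-KO1 replicate 1 peak passed it narrowly. The scores of the promoter peaks were 2.98 and 3.59 in parental replicates 2 and 3 and 4.04, 4.48 and 4.67 in the SAP30-KO1 replicates. Their summits were scattered, from 81 bp upstream of the outermost start site to 811 bp inside the gene. The sequence shown above is centred on the median summit, 503 bp inside the gene, and covers only part of that stretch. The only other BRAF site was in an intron, 114 kb into the gene, with a rank of 26.6 in parental replicate 2 and 58.5 in SAP30-KO1 replicate 2 and no summit elsewhere.

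NF1 (chr17:29421945-29709134, plus strand) encodes neurofibromin, a GTPase-activating protein for RAS. Its promoter had a summit in 3 libraries, with ranks of 24.5 in parental replicate 1, 27.8 in SAP30-KO1 replicate 2 and 36.7 in SAP30-KO1 replicate 3. The groups overlapped at 0 (difference 13.3, exact permutation test, two-sided, p = 0.4), and leaving out each library in turn gave 5.75 (without SAP30-KO1 replicate 3, groups overlapping) to 24.1 (without SAP30-KO1 replicate 1, groups not overlapping). The summits lay between 122 bp upstream and 142 bp downstream of the start site, where the noncoding gene MIR4733HG is annotated on the other strand. Inside this gene of 287 kb, an intron site 175 kb from the start had ranks of 10.3 and 25.3 in parental replicates 1 and 3, and an exon site at 233 kb had 39.7 in parental replicate 1. No SAP30-KO1 library had a summit at either.

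NF2 (chr22:29999545-30094587, plus strand) encodes merlin, a membrane-linked tumor suppressor. Promoter ranks were 76.6, 0 and 58.4 in parental replicates 1 to 3 and 51.3, 68.6 and 68.3 in the SAP30-KO1 replicates. A single library, parental replicate 2, had no summit there, and the other 5 overlapped. The mean difference of 17.7 (exact permutation test, two-sided, p = 0.7) turned to -4.77 without that library. The summits lay 60 to 345 bp upstream of the outermost start site. The 2 intron sites, 18.6 and 30.5 kb into the gene, had ranks of at most 28.0, and each lacked a summit in at least 3 libraries.

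Among the feedback inhibitors, DUSP6 (chr12:89741012-89746278, minus strand) encodes a phosphatase that removes the activating phosphates from ERK. Its promoter ranked at 96.6, 94.0 and 96.4 in the parental libraries and at 93.6, 81.2 and 95.5 in the SAP30-KO1 libraries. SAP30-KO1 replicate 2 was the lowest, and the groups overlapped because SAP30-KO1 replicate 3 was above parental replicate 2. The difference was -5.57 (exact permutation test, two-sided, p = 0.2). It was -1.10 without SAP30-KO1 replicate 2, and the groups no longer overlapped without parental replicate 2 (-6.38) or without SAP30-KO1 replicate 3 (-8.27).

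A second DUSP6 site, 1504 bp upstream, also had a summit in every library. Ranks there were 60.3, 50.5 and 63.4 in parental cells and 25.9, 75.1 and 17.5 in SAP30-KO1 cells. The SAP30-KO1 libraries held both the highest and the lowest values, so that the SD was 31.1 against 6.72 in parental cells (difference -18.5, exact permutation test, two-sided, p = 0.4). The library with the lowest rank at the DUSP6 start site, SAP30-KO1 replicate 2, had the highest at this upstream site. The wider window of this upstream site had 70.4% G and C and 35 CpG dinucleotides. The site (chr12:89747416-89748461) spanned the annotated start of the noncoding gene ENSG00000286608 (chr12:89747575-89812336), on the other strand. A further summit, 18.5 kb upstream, had a rank of 16.7 in SAP30-KO1 replicate 1.

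SPRY2 (chr13:80910111-80915261, minus strand) encodes a Sprouty protein that dampens signalling from growth factor receptors. Its promoter ranked at 97.8, 90.9 and 93.7 in parental cells and at 98.6, 89.6 and 95.8 in SAP30-KO1 cells. The SAP30-KO1 values reached both above and below the parental ones. The difference was 0.515 (exact permutation test, two-sided, p = 0.9), and its direction changed when single libraries were left out. In 5 of the libraries the summits lay 114 to 180 bp upstream of the start site, and in parental replicate 2 at 371 bp. The gene and its 20 kb upstream held 1 further summit, with a rank of 8.71 in SAP30-KO1 replicate 3.

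SPRY4 (chr5:141689992-141706020, minus strand), another Sprouty gene, had its strongest site away from its start sites. That site, 16.1 kb upstream of the outermost start and inside the annotated span of the antisense noncoding gene SPRY4-AS1, ranked at 93.5, 90.8 and 83.6 in parental cells and at 77.0, 85.2 and 90.7 in SAP30-KO1 cells. The groups overlapped, with the lowest value in SAP30-KO1 replicate 1 (difference -5.05, exact permutation test, two-sided, p = 0.4). The 6 summits fell within 334 bp of each other.

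At the SPRY4 start sites the parental libraries had 1 weak summit each and the SAP30-KO1 libraries had none. The parental ranks were 15.2, 3.57 and 27.6, and the difference was -15.4 (exact permutation test, two-sided, p = 0.1, adjusted p = 0.945). The 3 summits did not share a position, as they lay 22, 848 and 1465 bp inside the gene, counted from the outermost start, and merged into 3 separate sites, none of which had a summit in a second library. Their scores were 3.41, 2.66 and 4.05. The annotated start of SPRY4-AS1, on the other strand (chr5:141704774), lies between the summits of parental replicates 3 and 2 (141704555 and 141705172). The groups overlapped with promoters of 500 bp (-14.2), with start sites of protein-coding transcripts alone (-10.4), with the same number of top-ranked summits (-6.53) and with peaks limited to q values up to 0.0001 (-0.47). The difference was -9.37 without parental replicate 3.

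Of the ETS factor genes, ETV4 (chr17:41605212-41656988, minus strand) had 4 sites, with mean ranks over the 6 libraries of 29.6 or less. Its promoter value, the highest rank at any of its start sites in a library, was 40.4, 11.5 and 29.3 in parental cells and 53.6, 61.2 and 56.2 in SAP30-KO1 cells. All SAP30-KO1 libraries were above all parental ones, the nearest pair being 40.4 and 53.6. The means were 27.1 ± 14.6 and 57.0 ± 3.85 (SD, n = 3). They differed by 30.0 (exact permutation test, two-sided, p = 0.1, adjusted p = 0.945). It ran from 22.2 to 36.6 when each library was left out in turn, and ranked within the long arm of chromosome 17 it was 35.0 with the groups still not overlapping. The whole of ETV4 lies inside the annotated span of DHX8, a gene on the other strand.

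The 6 values for ETV4 did not come from 1 place. At the outermost start site the ranks were 32.4, 0 and 0 in parental cells and 20.3, 61.2 and 56.2 in SAP30-KO1 cells. These overlapped (difference 35.1, exact permutation test, two-sided, p = 0.2). Their summits lay 69 to 278 bp upstream. An internal start 33 kb into the gene had ranks of 40.4, 0 and 0 and of 7.73, 19.0 and 22.2. A start 49 kb into the gene, of a short annotated transcript, had a summit in all 6 libraries, with ranks of 13.6, 11.5 and 29.3 in parental cells and 53.6, 31.0 and 38.7 in SAP30-KO1 cells.

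At this last site the groups did not overlap, the nearest values being 29.3 and 31.0 (difference 23.0, exact permutation test, two-sided, p = 0.1, adjusted over 56419 sites to 0.988). Ranked within the chromosome arm the difference was 26.0 and the groups overlapped. An intron site 8.95 kb into the gene had ranks of 25.3 in parental replicate 3 and 8.45 and 7.82 in SAP30-KO1 replicates 1 and 2. Of the promoter sites of ETV4, the one near the gene end was thus the 1 with summits in all libraries, and the outermost start had the largest mean difference.

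ETV5 (chr3:185764103-185828107, minus strand), the relative of ETV4, had the most accessible promoter of the 8 genes. It ranked at 98.2, 99.6 and 99.8 in parental cells and at 98.3, 96.5 and 97.4 in SAP30-KO1 cells. Parental replicate 1 lay just below SAP30-KO1 replicate 1, so that the groups overlapped (difference -1.78, exact permutation test, two-sided, p = 0.2). The scores themselves were 21.8, 28.7 and 31.6 in parental cells and 20.3, 21.1 and 20.2 in SAP30-KO1 cells. These did not overlap, but scores of separate lists are not on 1 scale. Without parental replicate 1 (-2.27) or SAP30-KO1 replicate 1 (-2.23), or ranked within the long arm of chromosome 3 (-2.25), the groups did not overlap. The 6 summits lay inside the annotated span of DGKG, a protein-coding gene on the same strand. They fell within 120 bp of each other, about 1.1 kb inside ETV5 from its outermost start. The nearest of the 14 annotated ETV5 start sites was 133 bp downstream of them. They were the most tightly placed of the 8 genes' sites with a summit in all 6 libraries. A second site in an intron, 12.5 kb into the gene, had a summit in all 6 libraries, with ranks of 75.8, 54.0 and 72.0 in parental cells and 34.1, 50.6 and 67.3 in SAP30-KO1 cells (difference -16.6, exact permutation test, two-sided, p = 0.2). The lowest value was that of SAP30-KO1 replicate 1, and the groups overlapped. A further intron site, 38.3 kb into the gene, had a summit in parental replicate 1 with a rank of 18.7.

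**Figure D3:**
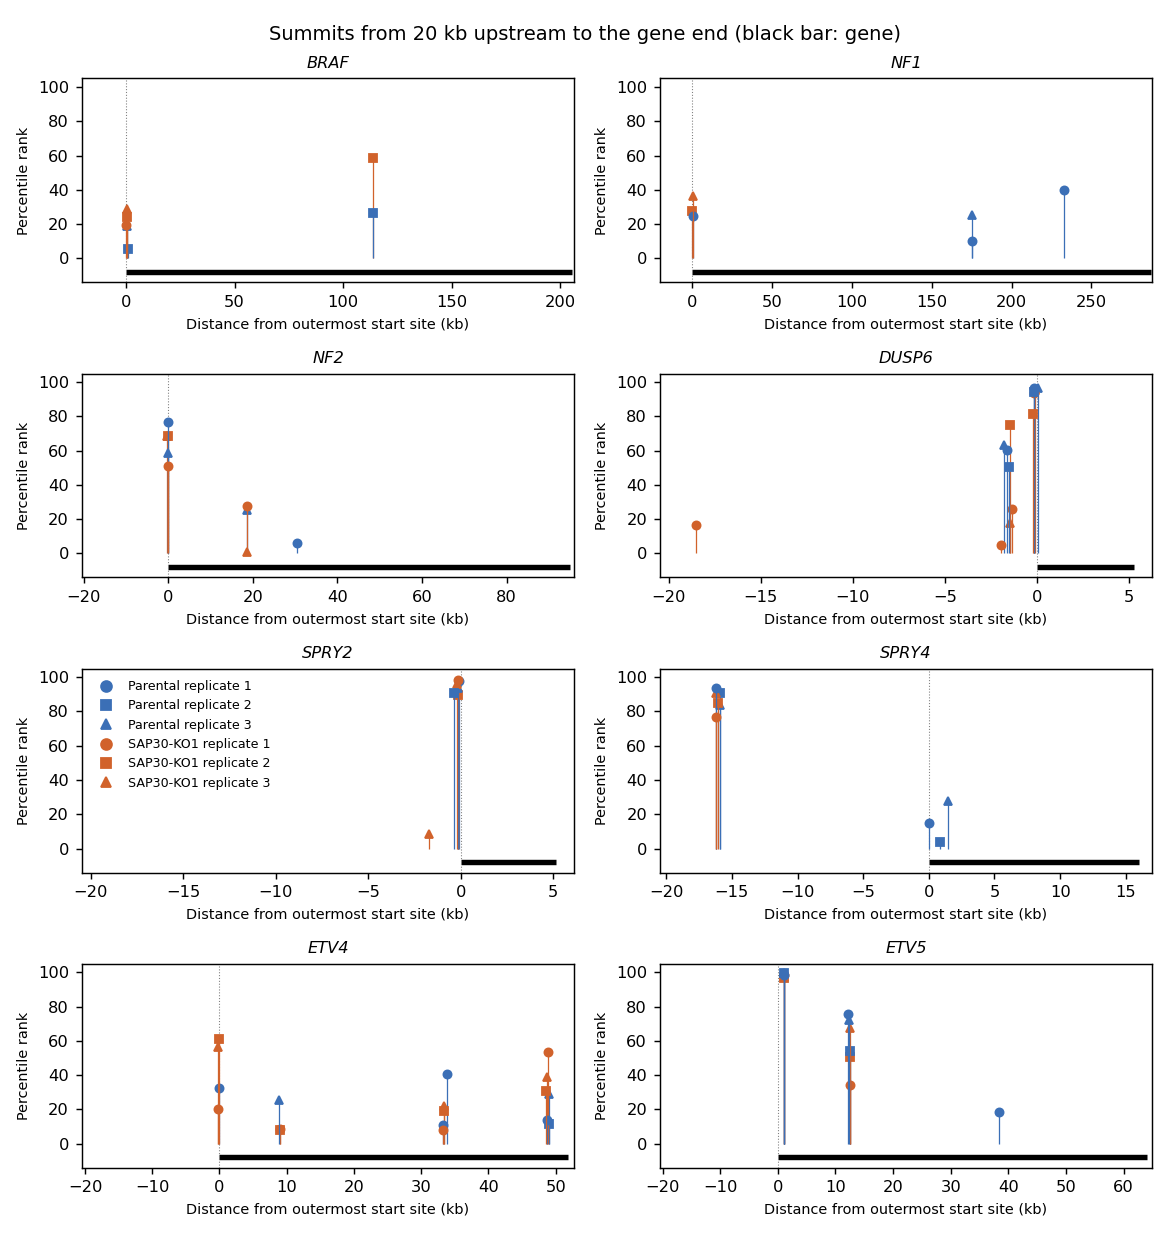
Percentile rank (vertical axis) of every summit from 20 kb upstream of each gene to its end, against the distance from the outermost start site in kb along the gene's own direction (horizontal axis, a different scale in each panel). Each point is a summit in 1 library and the black bar is the gene. The summits of SPRY2, DUSP6 and ETV5 gather near a start site in all 6 libraries, those of SPRY4 gather 16.1 kb upstream, and those of ETV4 fall at 4 places.

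Counted over the windows from 20 kb upstream of each gene to its end, the 8 genes held 83 summits in the 6 libraries. These merged into 24 sites of 56419 in all, after each summit was extended by 250 bp to each side. Of the 24, 7 had a summit in all 6 libraries (29.2%, against 28.9% of all sites), 9 in 2 to 5 libraries and 8 in a single library. The 7 were the promoters of ETV5, SPRY2 and DUSP6, the ETV4 start near the gene end, the upstream sites of DUSP6 and SPRY4 and the intron site of ETV5. By position, 12 of the 24 sites were at promoters, 7 in introns, 4 upstream and 1 in an exon. The BRAF promoter and the ETV4 start near the gene end did not overlap between the groups, both higher in SAP30-KO1, where 5.86% of all sites were. None of the 24 was lower in every SAP30-KO1 library than in every parental one, where 4.26% of all sites were.

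Summit numbers were also set against the length of each list, the shortest being those of SAP30-KO1 replicate 1 (29762) and parental replicate 2 (30477). The parental libraries had 17, 10 and 13 summits over the 8 windows and the SAP30-KO1 libraries had 15, 14 and 14. Per 10000 summits of the list these were 4.63, 3.28 and 3.87, and 5.04, 3.44 and 4.09, which overlapped. SPRY4 had 2 summits in each parental library and 1 in each SAP30-KO1 library (exact permutation test, two-sided, p = 0.1, adjusted p = 1 over 16320 genes), an order that 1.24% of the genes with a summit in the window had. The summit each SAP30-KO1 library lacked was the weak one at the start sites, and the groups overlapped at q values up to 0.0001 (-0.33), with equal list lengths (-0.67) and with 50 kb upstream (-1.67). The other 7 genes overlapped, with 0 to 4 summits per library. Summits per 100 kb were highest in the shortest windows, at 9.23 for DUSP6 and 4.64 for SPRY2, against 0.517 for BRAF and 0.326 for NF1. Every window included a promoter and 20 kb upstream, so a longer gene lowers this rate unless it holds more summits.

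The rest of the pathway was followed in 45 further genes, grouped by role. A promoter summit was found in at least 1 library for 40 of them, and in all 6 for 21. Among the 40 genes with a promoter summit, 3 ranked higher in every SAP30-KO1 library and 2 ranked lower. Over all genes tested, which likewise had such a summit, the shares were 6.01% and 4.57%. The median difference over the 40 genes was 1.46 points.

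Of 8 adaptors and exchange factors, all 8 had a promoter summit and GRB2, the adaptor that brings the exchange factor SOS to receptors, did not overlap. Its ranks were 61.0, 62.6 and 52.5 in parental cells and 89.3, 94.5 and 91.1 in SAP30-KO1 cells, with no parental value above 62.6 and no SAP30-KO1 value below 89.3 (difference 33.0, exact permutation test, two-sided, p = 0.1, adjusted p = 0.945). Of 8 kinases and scaffolds, 6 had a summit, and KSR1, a scaffold for RAF and MEK, was lower in SAP30-KO1. Its ranks were 32.8, 2.33 and 85.0 in parental cells and 1.24, 0 and 0 in SAP30-KO1 cells, with parental replicate 2 close to SAP30-KO1 replicate 1. MAPK3 and KSR2 had no promoter summit in any library.

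Of 7 RAS GTPase-activating proteins, 6 had a summit and DAB2IP was higher in SAP30-KO1, with 91.7, 88.5 and 88.7 against 95.0, 96.1 and 92.6. RASAL1 had none. Of 9 further feedback inhibitors, 8 had a summit, the groups of all 8 overlapped, and DUSP9 had none. Of 13 further ERK target genes, 12 had a summit. PHLDA1 was higher in SAP30-KO1, with 90.9, 78.1 and 84.7 against 92.6, 96.4 and 91.8. The ETS factor gene ETS1 was lower, with 99.2, 97.8 and 99.3 against 92.3, 95.2 and 90.5. ETS1 lies on the long arm of chromosome 11, and its difference of -6.08 was -2.72, with overlapping groups, when summits were ranked within that arm. The differences were -39.6 for KSR1 and 4.93 for DAB2IP, and KSR1, DAB2IP, PHLDA1 and ETS1 each were compared with p = 0.1 (exact permutation test, two-sided) and an adjusted p of 0.945. The cyclin gene CCND1, on the same arm, had no promoter summit in any library.

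**Figure D4:**
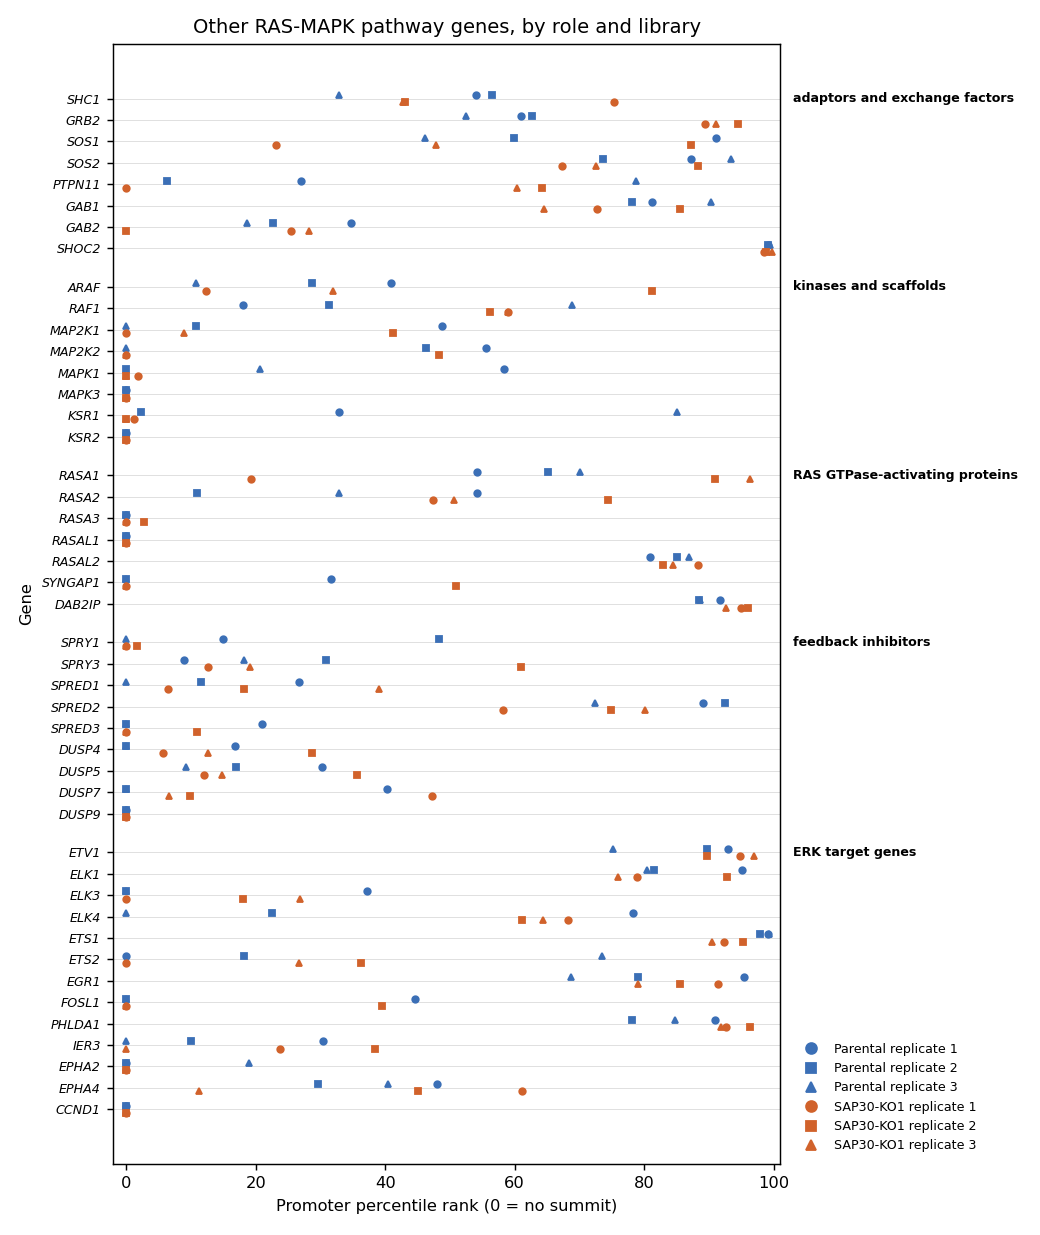
Promoter percentile rank (horizontal axis, 0 where a library had no promoter summit) of 45 further genes of the pathway (vertical axis), grouped by role. Each point is a library. GRB2, DAB2IP and PHLDA1 have all 3 SAP30-KO1 libraries to the right of the parental ones, and KSR1 and ETS1 have them to the left.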

How the data were processed

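ATAC-seq was analysed in 3 parental and 3 SAP30-KO1 MDA-MB-231 libraries. The authors sequenced single-end reads, mapped them to hg19 with bowtie2, discarded duplicates (Picard) and ran MACS2 with a q threshold of 0.05. The submitters' processing notes give Trim Galore 0.4.5, Bowtie2 2.3.3.1 and MACS2 2.1.0. The deposited lists give 1 summit per peak and library, with a score read as the −log10 of the q value because its minimum lay just above that of q = 0.05. Read shift, blacklist and depth are not given in the sources used here, and the lists hold no read counts, so no counting interval is given.

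Gene models were GENCODE release 44 on GRCh37, and all summits lay inside GRCh37 chromosomes. Windows ran from 20 kb upstream of a gene to its end. Summits were extended by 250 bp and merged on 1 bp of overlap. Promoter ranks, summit counts and sites were computed for all genes and sites (Python 3.11.15, scipy 1.17.1) with the exact permutation test, checked on simulated lists, and adjusted over all of them. The 8 genes, the pathway list and the marker lists were chosen with earlier results of these data known. One marker gene is not reported here. All 8 genes are named. Sites named are the promoters, those in all libraries and those that did not overlap, and other sites of the 8 genes are named to account for each of them. Named pathway genes are those that did not overlap or had no summit. Alternatives were stricter q values, equal list lengths, ranks within a chromosome arm, other promoter and window sizes, leaving out each library and a block on the replicate number.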

Additional observations from a re-analysis of the deposited data

How the results depend on the processing

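As the exact test could not pass 0.05, the alternatives are described by direction and overlap. Of 112 recomputed promoter differences, 95 kept direction and overlap, 5 lost a gap between the groups, 7 gained one and 5 changed direction. Of 96 recomputed summit counts, 86 kept overlap and did not change direction, though some of these differences became 0. A further 3 lost a gap, 1 gained one and 6 changed direction. A block on the replicate number leaves the differences as they were by construction, so there only the overlap could change. With the same number of top-ranked summits, 1 gene (3 in the report) and 1 site (2 in the report) did not overlap, and the SPRY2 difference changed to -0.46. With summits extended by 100 bp, 1 site did not overlap. The total of summits over the 8 genes, higher by 1 in SAP30-KO1, was lower by a difference of -2 without the upstream 20 kb, where DUSP6 changed to -0.33. At a q value of 0.0001 or less the summit counts of NF1 (0.33) and DUSP6 (-0.33) changed direction. The cause was not tested.

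With each library left out, 3 to 5 genes and 3 to 5 sites did not overlap, as fewer libraries overlap less often by construction. The promoter difference ran from -4.77 to 33.5 for NF2 and from -1.46 to 3.04 for SPRY2, and that in summits from -0.17 to 0.83 for BRAF, from -1.33 to 0.17 for NF1, from -0.33 to 0.67 for NF2 and from -0.67 to 2.83 in total. Without parental replicate 2 the mean difference over the 8 promoters was 1.37 in place of 6.85.

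Replicate numbers did not pair the libraries: deviations of same-numbered libraries correlated at -0.015, -0.012 and -0.0083. With a replicate block, an exact sign-flip test whose smallest p is 0.25, 4 promoters, DUSP6 added, and 4 sites moved the same way in all 3 pairs.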
